A study of Mus musculus with 4 samples.

Results

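The cyclins and Cdc25 phosphatases that drive the cell cycle were examined for Eya1 occupancy in the embryonic mouse kidney. The 10 members were taken by name, with earlier results of these data known, out of 21951 protein-coding genes in GENCODE release M21. They were divided by the cell cycle step with which each is mainly associated. The 6 G1 members were Ccnd1, Ccnd2, Ccnd3, Ccne1, Ccne2 and Cdc25a, and the 4 mitotic members were Ccna2, Ccnb1, Cdc25b and Cdc25c. Chromatin came from kidneys of E13.5 knockin mice whose Eya1 protein carries HA and FLAG tags (Eya1HA-FLAG), and it was precipitated with anti-FLAG beads. Each assay pooled 80 kidneys, so a sample is a pool of all kidney cell types and not 1 embryo or 1 cell type. The 4 samples were 2 Eya1 precipitates, 1 input control and 1 IgG control, and only the Eya1 precipitates are used below. Whether the replicates came from separate pools of kidneys is not stated in the labels.

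Cyclins are regulatory subunits that switch on cyclin-dependent kinases (CDKs), and their own levels rise and fall through the cell cycle. D and E cyclins act in G1 and at entry into S phase, cyclin A2 acts in S phase and G2, and cyclin B1 acts with Cdk1 in mitosis. Cdc25 phosphatases remove inhibitory phosphates from CDKs. Cdc25a acts at entry into S phase and also later, while Cdc25b and Cdc25c act mainly at entry into mitosis. Eya1 is needed to keep nephron progenitors, the dividing stem-like cells of the developing kidney. The protein does not bind DNA on its own and is found at genes through partner proteins. The question here was which of these cell cycle genes carried Eya1 and whether G1 and mitotic members differed.

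Each Eya1 replicate was deposited as a list of peaks, that is, of genome intervals called as occupied, without a height, score or read count. In replicate 1 the median peak was 1069 bp wide and 94.5% of peaks were promoter peaks, that is, had any base within 1 kb of an annotated transcription start site (TSS). In replicate 2 the median was 188 bp and the share was 84.9%. The replicates therefore differed greatly in peak width, and a width is read below only against its own list. The sequencing depth is unknown, so a gene without a listed peak is one where none was called, not one shown to be free of Eya1. A peak was assigned to a gene when it lay within 1 kb of a TSS of any of its transcripts.

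Sequences at the occupied members other than Ccnd2 are shown first, with 1 unoccupied member beside them. They show parts of the peaks and of the DNA next to them, not whole peaks in each case. All are from mm10, are given 5′ to 3′ on the strand of the gene, and hold no annotated exon. Capitals mark matches, on either strand, to 6 short motifs: E2F (TTTCGCGC or TTTGGCGC), CHR (TTTGAA or TTCGAA), NFY (CCAAT), SP (GGGCGG), E-box (CACGTG) and CRE (TGACGTCA). E2F factors drive genes of S phase entry, CHR (cell cycle homology region) elements are known from promoters of mitotic genes, and NFY and SP factors bind many promoters. The first is upstream of Cdc25a on the plus strand (chr9:109875329-109875578), where the last 49 bases were covered by the replicate 1 peak. The next is the intronic stretch of Cdc25a that lay inside the peaks of both replicates (chr9:109876160-109876305). The third is the whole replicate 2 peak of Ccnd3, also inside the replicate 1 peak (chr17:47594008-47594161, plus strand). The next is the intronic stretch of the Ccne1 peak in replicate 2 (chr7:38107239-38107321, minus strand). The last pair sets 2 mitotic members side by side, the stretch upstream of Ccnb1 that lay wholly inside the replicate 1 peak (chr13:100786571-100786736, minus strand) and that upstream of Cdc25b, where no peak was listed (chr2:131186698-131186948, plus strand).
Cdc25a upstream: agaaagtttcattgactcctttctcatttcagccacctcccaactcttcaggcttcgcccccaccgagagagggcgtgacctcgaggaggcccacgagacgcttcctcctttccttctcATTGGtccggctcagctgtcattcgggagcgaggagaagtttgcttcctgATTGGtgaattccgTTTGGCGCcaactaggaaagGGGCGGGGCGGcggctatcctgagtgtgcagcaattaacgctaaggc
Cdc25a intron: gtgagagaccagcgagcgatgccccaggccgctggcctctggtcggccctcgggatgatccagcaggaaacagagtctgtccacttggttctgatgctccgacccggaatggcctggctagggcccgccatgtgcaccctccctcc
Ccnd3 intron: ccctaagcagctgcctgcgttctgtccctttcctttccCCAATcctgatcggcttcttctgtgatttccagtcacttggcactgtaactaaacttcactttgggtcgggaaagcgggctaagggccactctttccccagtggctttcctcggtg
Ccne1 intron: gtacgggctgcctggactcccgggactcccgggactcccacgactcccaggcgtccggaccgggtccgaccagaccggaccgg
Ccnb1 upstream: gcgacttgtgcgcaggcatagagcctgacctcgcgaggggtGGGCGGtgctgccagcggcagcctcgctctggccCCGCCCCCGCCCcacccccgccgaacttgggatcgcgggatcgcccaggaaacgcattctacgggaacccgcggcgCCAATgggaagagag
Cdc25b upstream: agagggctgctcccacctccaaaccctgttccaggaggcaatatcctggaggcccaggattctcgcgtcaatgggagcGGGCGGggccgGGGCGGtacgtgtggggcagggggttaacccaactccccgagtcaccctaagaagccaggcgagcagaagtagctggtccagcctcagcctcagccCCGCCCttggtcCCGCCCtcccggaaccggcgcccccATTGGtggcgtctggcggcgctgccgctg

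In these stretches an E2F match stood only upstream of Cdc25a, at base 184, outside both peaks and after NFY matches at bases 120 and 170. SP matches followed it at bases 204 and 209, in the part covered by the replicate 1 peak. The intronic stretch of Cdc25a under both peaks and that of Ccne1 held none of the 6 motifs. Ccnd3 held 1 NFY match, at base 39. Upstream of Ccnb1 there were 3 SP matches and 1 NFY match, and upstream of the unoccupied Cdc25b there were 4 SP matches and 1 NFY match, so both motifs were present with and without a listed peak. The stretches differ in length, at 166 and 251 bases, so the numbers of matches cannot be compared directly. The Cdc25b stretch lies within Spef1, a gene on the other strand.

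Promoter peaks were listed at 5 of the 10 members in at least 1 replicate, where 23.5% of all protein-coding genes had one. Peaks in both replicates were listed at 2 members, Ccnd3 and Cdc25a, where 11.5% of protein-coding genes had both. Ccnd2 and Ccnb1 had a peak in replicate 1 alone (8.76% of protein-coding genes did) and Ccne1 in replicate 2 alone (3.25%). Ccnd1, Ccne2, Ccna2, Cdc25b and Cdc25c had none in either list. Replicate 1 called 4 members (40.0%, against 20.2% of protein-coding genes) and replicate 2 called 3 (30.0%, against 14.7%), a mean of 3.5 ± 0.707 members (SD, n = 2). All members have at least 3 distinct TSS positions, and among the 13048 protein-coding genes of that kind the shares with a peak were higher, at 28.0% in replicate 1, 20.6% in replicate 2, 32.3% in either and 16.3% in both. These are counts over 10 genes in 2 libraries, and no test was made across genes, which are not replicates.

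**Figure D1:**
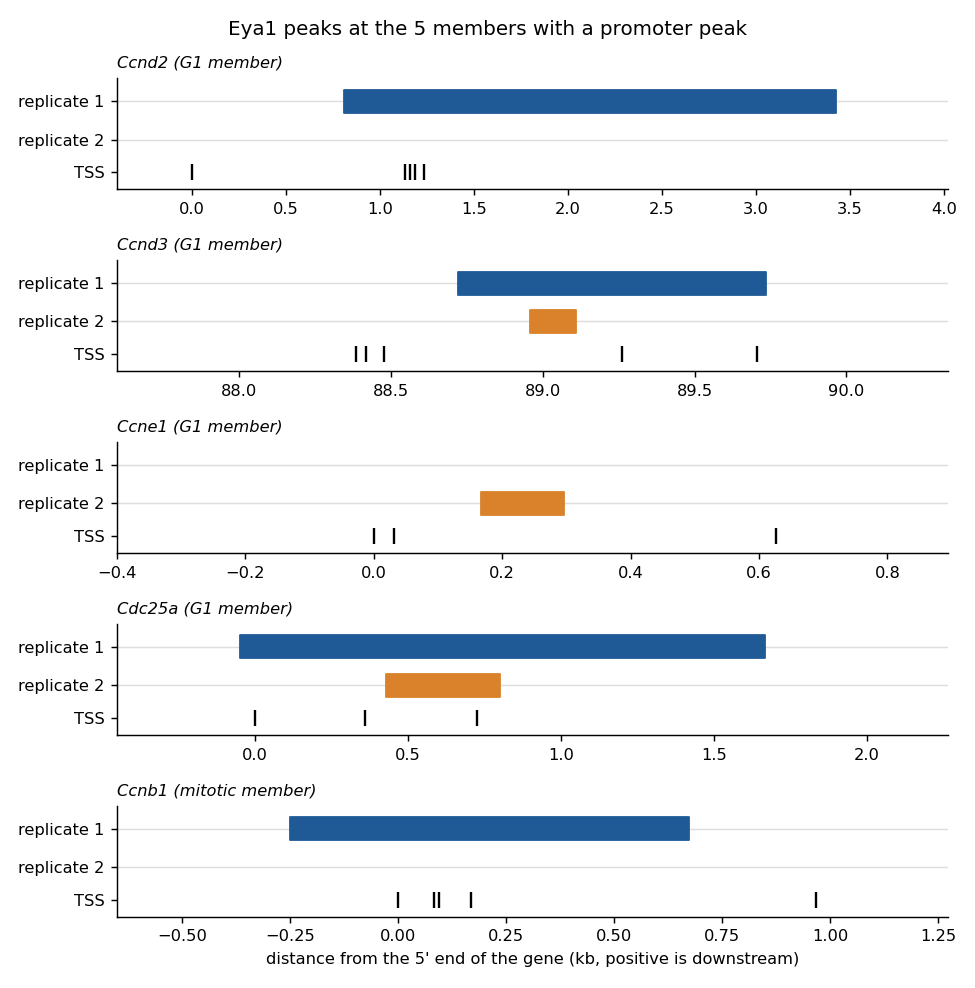
Peaks of replicate 1 (blue) and replicate 2 (orange) at the 5 members with a promoter peak, plotted as distance in kb from the 5′ end of the gene, with black ticks at annotated TSSs. The replicate 2 peaks of Ccnd3 and Cdc25a lie inside the wider replicate 1 peaks, and the Ccnd3 peaks lie between 88721 and 89735 bp into the gene. Each panel has its own scale.

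Cdc25a, which activates the CDKs of S phase entry, had a peak within its first 2 kb in both replicates. The gene spans 109875579 to 109893895 on the plus strand of chromosome 9. The replicate 1 peak spanned 1716 bp (109875530 to 109877245), from 49 bp before the gene to 1666 bp into it, and contained 3 of its TSSs. It covered 1266 bp of UTR, 244 bp of coding sequence and 157 bp of intron. The replicate 2 peak spanned 375 bp (109876007 to 109876381), lay wholly inside the other and contained 1 TSS. It covered 76 bp of UTR, 153 bp of coding sequence and 146 bp of intron. Both were wide for their lists, at percentiles 84.8 and 84.6 of width. Ccnd3, the only other member with a peak in both lists, did not reach the median width of either.

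Ccnd3, a D cyclin, also had peaks in both replicates, but far from the 5′ end of the gene record and near internal TSSs. Which start is mainly used in the kidney is not known from these data. Its 94641 bp run from 47505051 to 47599691 on chromosome 17, and the TSSs fall in clusters at the 5′ end and from 88385 bp further in, where shorter transcripts begin. The replicate 1 peak spanned 1015 bp (47593772 to 47594786) over 2 of the internal TSSs, 788 bp of it in introns. The replicate 2 peak of 154 bp (47594008 to 47594161) was wholly intronic and lay 152 bp from the nearest TSS. Their widths stood at percentiles 45.2 and 31.1 of their lists. Neither list had a peak within 1 kb of the 5′ end of Ccnd3. Each list held 1 further peak within 10 kb of the gene, at the start of another gene. When only the 5′ end of each gene record counted as its TSS, Ccnd3 was lost, and 1 member, Cdc25a, had a peak in both replicates. Under that rule 4 of the 10 members had a peak in either replicate, as did 4733 of 21951 protein-coding genes. The share of all genes with a peak in both lists under that rule is not given here.

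Ccnd2, another D cyclin, had the widest peak of the group, in replicate 1 alone. It spanned 2616 bp (127148770 to 127151385) on chromosome 6, at percentile 97.4 of width in that list, and contained 4 TSSs. The gene lies on the minus strand (127125162 to 127152193), and the peak ran from 808 bp to 3423 bp downstream of its 5′ end. Of its bases, 287 were UTR, 302 coding, 1702 exon of noncoding transcripts and 325 intron. The antisense gene 9330179D12Rik also has a TSS within 1 kb of this peak, so it cannot be assigned to Ccnd2 alone. In replicate 2 the nearest peak to any Ccnd2 TSS was 616 kb away.

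Ccne1, the cyclin E that activates Cdk2 at S phase entry, had the narrowest peak of the group, in replicate 2 alone. It spanned 129 bp (38107239 to 38107367) on chromosome 7, 135 bp from the nearest TSS, and stood at percentile 14.5 of width in its list. The gene lies on the minus strand from 38097984 to 38107534. The peak covered 46 bp of UTR and 83 bp of intron. In replicate 1 the nearest peak was 79.6 kb away, at Uri1.

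Ccnb1, the mitotic cyclin, was the 1 mitotic member with a promoter peak, in replicate 1 alone. The peak spanned 924 bp (100785897 to 100786820) on chromosome 13, from 250 bp before the gene (100778650 to 100786570, minus strand) to 673 bp into it, and contained 4 TSSs. It covered 168 bp of UTR, 28 bp of coding sequence and 478 bp of intron. Its width stood at percentile 37.9 of the list. In replicate 2 the nearest peak was 46.5 kb away, at Slc30a5.

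Among the G1 members, promoter peaks were listed at 4 of 6 in either replicate (66.7%), at 3 in each replicate and at 2 in both (33.3%). Among the mitotic members they were listed at 1 of 4 in either replicate (25.0%), at 1 in replicate 1, at 0 in replicate 2 and at 0 in both. The share of G1 members thus lay above the background of 23.5%, or 32.3% among genes with at least 3 TSS positions, and that of mitotic members near it. With Ccna2 left out of the mitotic members, since cyclin A2 also acts in S phase, the count was 1 of 3. With Cdc25a left out of the G1 members it was 3 of 5. The order of the classes was the same in each replicate, but it rested on few genes (3 of 6 against 1 of 4 in replicate 1, and 3 of 6 against 0 of 4 in replicate 2). With only the 5′ end of each gene record as its TSS, the counts in either replicate were 3 of 6 and 1 of 4. By that rule 4733 of 21951 protein-coding genes had a peak. In replicate 1 it left Ccnd2 and Cdc25a among the G1 members and Ccnb1 among the mitotic ones, a smaller contrast. Peaks no narrower than their list's median were found at 2 G1 members, Cdc25a and Ccnd2, and at 0 mitotic members. Under the same filter 3215 of 21951 protein-coding genes had one, so 0 of 4 is no sign of a difference between the classes. Thus 2 of the 4 G1 members counted, Ccnd3 and Ccne1, and the 1 mitotic member, Ccnb1, had only narrower peaks.

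**Figure D2:**
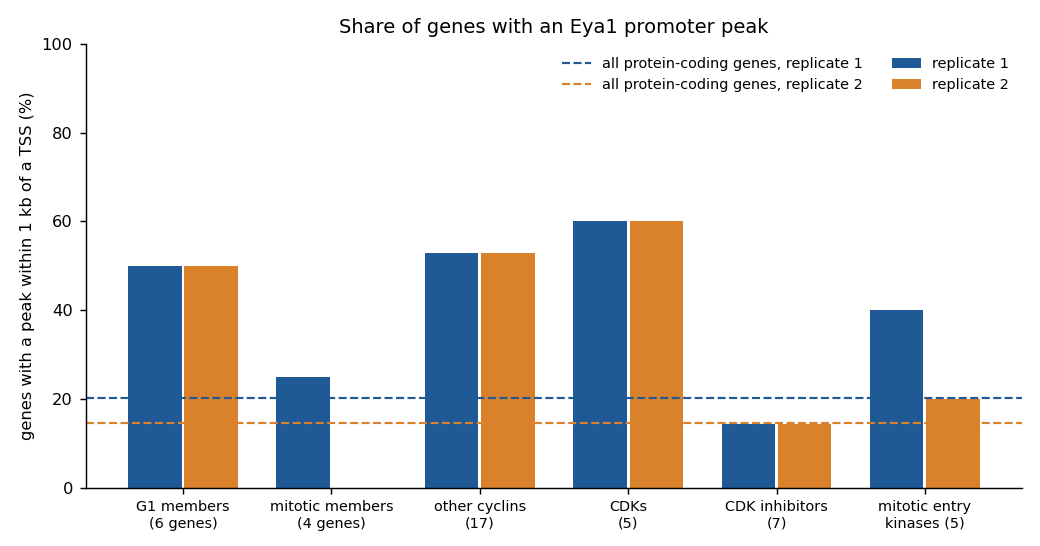
Share of genes (%) with a peak within 1 kb of a TSS in replicate 1 (blue) and replicate 2 (orange), for the G1 and mitotic members and for 4 other lists of cell cycle genes. Dashed lines give the shares of all protein-coding genes, 20.2% in replicate 1 and 14.7% in replicate 2; G1 members stand at 50.0% in both, and mitotic members at 25.0% and 0.

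Both classes had members far from any listed peak. The 2 G1 members without a promoter peak in either list were Ccnd1, a D cyclin, and Ccne2, the second cyclin E. For neither gene does this show that Eya1 was absent. For Ccnd1 (chromosome 7, 144929931 to 144939925), the nearest peak to a TSS was 384 kb away in replicate 1 and 468 kb away in replicate 2. Of the protein-coding genes, 77.1% and 76.9% had a nearer peak. For Ccne2 (chromosome 4, 11191351 to 11204779) the distances were 34.5 kb, to a peak at Trp53inp1, and 61.1 kb, to a peak at Ints8. The median distance over protein-coding genes was 83.0 kb in replicate 1 and 117 kb in replicate 2, so Ccnd1 lay further from a peak than the median gene and Ccne2 lay nearer in both lists.

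Of the mitotic members, Ccna2 (chromosome 3, 36564865 to 36572150) was the furthest from a peak, at 291 kb in replicate 1 and 634 kb in replicate 2. Cdc25b (chromosome 2, 131186949 to 131198497) and Cdc25c (chromosome 18, 34732993 to 34751533) lay close to peaks at other genes. The peaks nearest to Cdc25b were at the promoter of Cenpb, which encodes a centromere protein, 7.09 kb and 7.33 kb away. Those nearest to Cdc25c were at Fam53c, 7.22 kb and 8.09 kb away. The TSS window therefore had to exceed 5 kb before either gene gained a peak, and the counts of members were the same with windows of 500 bp, 2 kb and 5 kb.

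**Figure D3:**
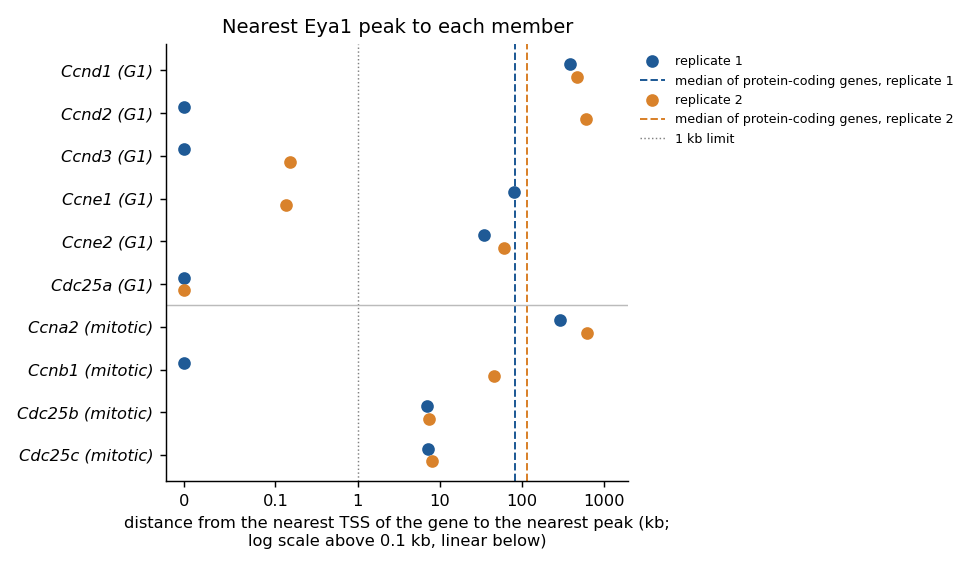
Distance in kb (log scale above 0.1 kb) from the nearest TSS of each member to the nearest peak of replicate 1 (blue) and replicate 2 (orange), with G1 members above the grey line and mitotic members below it. Dashed lines give the medians over protein-coding genes, 83.0 and 117 kb. Cdc25a sits at 0 in both lists, Ccnd1 and Ccna2 sit at 291 kb or more in both, and Cdc25b and Cdc25c sit between 7.09 and 8.09 kb.

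Gene bodies were then searched away from the promoters. None of the 10 members had a peak inside the gene and over 1 kb from all of its TSSs in either list, where 1.97% of protein-coding genes had one (1.07% in replicate 1 and 1.58% in replicate 2). The number was also 0 when the distance was set to 500 bp or 2 kb. Within 50 kb of the members, replicate 1 listed 12 further peaks and replicate 2 listed 8. All of these were within 1 kb of a TSS of another gene. Of them, 3 in each list were within 10 kb of a member, and they lay by Ccnd3, Cdc25b and Cdc25c.

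The 7 promoter peaks of the members, 4 in replicate 1 and 3 in replicate 2, were then compared with all promoter peaks for width and position. In replicate 1 the members' median width was 1365.5 bp, against 1099 bp for all 4041 promoter peaks. In replicate 2 it was 154 bp, against 199 bp for 3545 promoter peaks. The members thus stood above the median of one list and below that of the other, and their widths had no common direction. The midpoints of all 7 peaks lay downstream of the 5′ end of the gene. So did those of 84.7% of 4623 pairs of a protein-coding gene and a promoter peak in replicate 1, and 85.8% of 3960 in replicate 2. A peak near several genes counts in several pairs. The peak contained the 5′ end of the gene at 2 members in replicate 1, Cdc25a and Ccnb1, and at 0 members in replicate 2, where it did so in 68.5% and 6.01% of such pairs. Only the Ccnd2 peak lay within 1 kb of a TSS of another gene. Such sharing was seen for 32.9% of promoter peaks in replicate 1 and 30.6% in replicate 2.

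**Figure D4:**
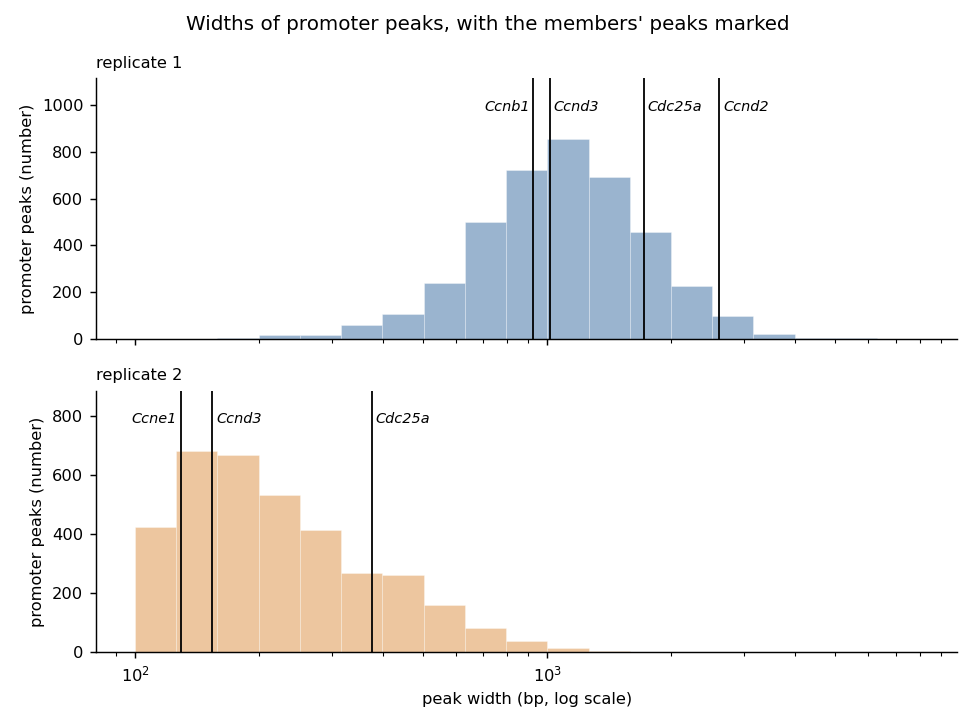
Widths of all promoter peaks (bp, log scale) in replicate 1 (above) and replicate 2 (below), as numbers of peaks per width class, with black lines at the members' peaks. The members range from 924 to 2616 bp in replicate 1 and from 129 to 375 bp in replicate 2, and Cdc25a lies in the upper part of both.

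Base composition was measured in the 200 bp around each peak midpoint, because most Eya1 peaks lie in sequence rich in G and C. The GC content was 55.5% at Ccnd2, 65.5% and 55.5% at Ccnd3 (replicates 1 and 2), 78.0% at Ccne1, 57.0% and 65.0% at Cdc25a and 67.0% at Ccnb1. The medians over promoter peaks were 69.0% in replicate 1 and 70.5% in replicate 2, so 6 of the 7 windows lay below the median of their list. The observed over expected ratio of CpG was 0.473 in the replicate 2 window of Cdc25a and 0.479 in that of Ccnd3, against a median of 0.847. In Ccne1 it was 0.895 and in Ccnb1 0.84.

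Motifs were counted in the same windows, where a match describes the sequence and not binding. In the 200-bp windows, 1 peak (Cdc25a, replicate 1) held SP, which was present in 50.2% of all windows in that list, and 1 peak (Ccnd3, replicate 2) held NFY, present in 10.5% of its list. No window held E2F, CHR, E-box, CRE or RE1, the element of the repressor REST, searched with up to 2 mismatches. Over all windows of replicates 1 and 2, RE1 was present in 5.4% and 16.7% and CHR in 4.23% and 5.15%. E-box was present in 3.88% and 2.37%, E2F in 0.912% and 0.527% and CRE in 0.795% and 0.527%. In windows of promoter peaks alone, the kind the members have, RE1 was present in 3.12% and 6.29% and CHR in 3.96% and 4.01%. Among these, SP was present in 52.4% in replicate 1 and NFY in 8.46% in replicate 2. With so few member windows, the absence of these motifs does not set the members apart. Over whole peaks, both Cdc25a peaks held an E2F match, as did 4.37% of whole peaks in replicate 1 and 0.766% in replicate 2. The replicate 1 peak of Cdc25a also held an RE1 match (17.5% of that list), and the Ccnd2 peak held the single CHR match (36.9%).

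Promoter windows from RefSeq (build GRCm38.p6, 250 bases before to 50 after a start) were on hand for 5 members, Ccnb1, Ccnd3 (2 windows), Ccne1, Cdc25a and Cdc25b. The members without an entry were Ccnd1, Ccnd2, Ccne2, Ccna2 and Cdc25c. E2F was found at Cdc25a alone and in 1.05% of 21263 windows of protein-coding genes. CHR was found at Cdc25b alone and in 17.6% of windows. All 6 windows held SP (46.2% of windows), while NFY was found at Ccnb1, Cdc25a, Cdc25b and the internal start of Ccnd3 (38.2%). E-box, CRE and RE1 were found in none, and were present in 7.84%, 2.23% and 3.01% of windows. The replicate 1 peak of Ccnb1 covered all 300 bases of its window and that of Cdc25a covered 99. The windows of Ccne1 and Ccnd3 were covered by 0 bases in either list, since their peaks lay further into the gene.

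Other genes of the cell cycle machinery were taken from lists of 34 genes. Of the 17 other cyclins, 10 had a promoter peak in either replicate (58.8%) and 8 in both (47.1%), where 23.5% and 11.5% of all protein-coding genes did. Peaks in both lists were found at Ccng2, Ccnj, Ccnk, Ccnl1, Ccnl2, Ccnt1, Ccnt2 and Ccny. Cyclins K, T1 and T2 activate kinases of transcription elongation, and cyclins L1 and L2 act in splicing. Ccnh had a peak in replicate 1 alone and Ccni in replicate 2 alone. The peaks of Ccnk lay within 1 kb of a TSS of Setd3 as well, and that of Ccni within 1 kb of one of 2010109A12Rik.

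Among the CDKs, 3 of 5 had a peak in both lists (60.0%, against 11.5% of protein-coding genes). They were Cdk1, the partner of cyclin B1 in mitosis, Cdk4, the partner of D cyclins, and Cdk7, the kinase that activates other CDKs. The Cdk1 peaks were 1377 bp and 352 bp wide, those of Cdk4 1605 bp and 567 bp, and those of Cdk7 972 bp and 165 bp. Cdk2 and Cdk6 had 0 peaks. The CDKs that pair with mitotic and with G1 cyclins were thus both represented. Among 7 CDK inhibitors, 1 had a peak in both lists (14.3%, against the same 11.5%), Cdkn2c, an inhibitor of Cdk4 and Cdk6 (388 bp and 240 bp), and the other 6 had none.

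Of 5 kinases that act at entry into mitosis or in its checkpoint, 2 had a peak in either replicate (40.0%, against 23.5% of protein-coding genes) and 1 in both (20.0%, against 11.5%). Wee1, which places the inhibitory phosphate on Cdk1 that Cdc25 removes, had a peak of 2760 bp in replicate 1, at percentile 98.1 of width, and peaks of 179 bp and 117 bp in replicate 2. Pkmyt1, the related membrane-bound kinase, had a peak in replicate 1 alone (1030 bp). Plk1, Chek1 and Chek2 had none. Across the 34 genes, 47.1% had a peak in either replicate and 38.2% in both, compared with 50.0% and 20.0% of the 10 members, 23.5% and 11.5% of all protein-coding genes, and 32.3% and 16.3% of those with at least 3 TSS positions.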

How the data were processed

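Eya1 occupancy was measured by ChIP-seq in kidneys of E13.5 Eya1HA-FLAG mice. According to the methods, the authors used Bowtie (mm10) for alignment and MACS for peak calling, with several P value cutoffs. Peaks were called against input and against IgG, and the authors carried forward those common to both calls. Whether the deposited lists hold only such common peaks is not stated. The submitters' processing notes name HISAT2, and which aligner, cutoff and control lie behind each deposited list was not given in the sources used here. The deposited files hold 1 list per replicate, with 3 columns (chromosome, start, end) and no score, count or depth, so a wider peak may reflect the cutoff as well as the signal. The labels class these libraries as transcriptomic, from total RNA, while the sample titles and the methods describe ChIP-seq, and the lists were read as ChIP peaks. Groups and replicate numbers came from the sample titles. Neither control sample was used here.

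Starts were made 1-based, and 0 peaks lay beyond a chromosome end of GRCm38, the assembly of mm10. Genes and TSSs were those of GENCODE M21. Python 3.11.15, numpy 2.4.6, pandas 2.3.3, pysam 0.24.0 and matplotlib 3.10.9 were used. A gene was counted when a peak lay within 1 kb of a TSS of any of its transcripts. Bases under a peak were assigned in the order coding, UTR, other exon, intron. Distances to the nearest peak were taken from the nearest TSS, over genes on chromosomes with a peak. The promoter call was tested on simulated data. No test across genes was made. The members, their division and the lists of other genes were chosen with earlier results of these data known. Genes named are all members, genes with a TSS within 1 kb of a member's peak, and listed genes with a peak in both replicates or, failing that, in 1. Other genes at the nearest peaks, listed genes with a peak in 1 list and genes with none were named after their values were seen.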

Additional observations from a re-analysis of the deposited data

How the results depend on the processing

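Of 78 alternative values for 21 results, 61 were within 1.5 times the reported value and 17 were not. With peaks no narrower than their list's median, a promoter peak in either replicate was found at 2 members, 2 G1 members, 0 mitotic members and 3215 protein-coding genes, at 2 members in replicate 1, at 1 in replicate 2 and at 1 in both. Counting only the 5′ end of the gene gave 1 member with a peak in both replicates. In either replicate it gave 3 G1 members, 1 mitotic member and 4733 protein-coding genes. Leaving out 1 replicate gave 3 to 4 members, 3 to 3 G1 members, 0 to 1 mitotic members and 3234 to 4444 protein-coding genes, and the 1 mitotic member, Ccnb1, was lost without replicate 1. With a required overlap of 50% of each peak, 0 members had overlapping peaks, since the replicate 2 peaks of Cdc25a and Ccnd3 cover only 21.9% and 15.2% of the replicate 1 peaks. Both replicate 2 peaks lay wholly inside the replicate 1 peaks. The share of all protein-coding genes under the 50% rule is not given here, so the 0 is not a result about the members. The median widths of the lists were 1069 and 188 bp. A narrow peak inside a wide one can therefore fail this rule, which does not measure whether the replicates agree. Over whole peaks the motif counts among the 7 member peaks were 2 for E2F, 1 for CHR, 4 for NFY, 4 for SP and 1 for RE1, where longer intervals hold more matches. For NFY and for SP, 3 of the 4 peaks were in replicate 1 and 1 was in replicate 2. Of all whole peaks in replicates 1 and 2, 61.3% and 11.8% held NFY and 89.2% and 47.8% held SP. No paired analysis was possible because no list of a control sample was analysed here and the Eya1 replicates are compared with no other group. The background among genes with at least 3 TSS positions, the split without Ccna2 and that without Cdc25a were chosen after seeing the data. Without scores, counts or depth, weak binding under the threshold and absent binding cannot be told apart.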

Other observations

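The 17 other cyclins were divided, after their values were seen, into those that act with kinases of transcription or splicing (Ccnc, Ccnh, Ccnk, Ccnl1, Ccnl2, Ccnt1 and Ccnt2) and the remaining 10. In the first set, 6 of 7 had a promoter peak in either replicate (85.7%) and 5 in both (71.4%). In the second, 4 of 10 had one in either replicate (40.0%) and 3 in both (30.0%). Of all protein-coding genes, 23.5% had one in either replicate and 11.5% in both. Ccnc was the 1 gene of the first set without a peak. In the second set, Ccng2, Ccnj and Ccny had peaks in both lists, Ccni had one in replicate 2, and Ccna1, Ccnb2, Ccnb3, Ccnf, Ccng1 and Ccno had none. No test was made of this division, which was drawn from the values themselves.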
